A study of Mus musculus with 12 samples.

Results

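The 5 genes described here are Nppa, Nppb, Myh6, Myh7 and Mir208b, the natriuretic peptide and cardiac myosin heavy chain genes whose levels are widely read as a gauge of strain on the heart muscle. They were chosen by name, as the rows of the count table that carry these symbols, and all 5 were found among 40594 genes. RNA sequencing was done on adult mouse ventricles in 4 groups of 3 libraries each: Wnt LOF left ventricle (LV), Wnt LOF right ventricle (RV), control LV and control RV. The series title places the work in the setting of Wnt signalling, arrhythmia and the difference between the right and left ventricles. The labels give no strain, no allele, no targeted gene and no promoter or Cre for the Wnt LOF genotype. Nor do they tie each library to its own animal, so the p-values below measure library-to-library spread, part of which may be technical.

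Nppa encodes atrial natriuretic peptide and Nppb encodes brain natriuretic peptide, hormones that heart muscle releases under stretch and that act through guanylyl cyclase receptors to raise cyclic GMP, excrete salt and relax vessels. Myh6 encodes the fast alpha myosin heavy chain and Myh7 the slower beta chain, and the adult mouse ventricle uses mostly the alpha chain. In foetal and overloaded mouse hearts Myh7, Nppa and Nppb are known to be high, and this return of foetal genes is a common readout of hypertrophy. Mir208b is a microRNA gene within an intron of Myh7, and its relative Mir208a lies within an intron of Myh6. Both belong to a group of muscle microRNAs that also includes the one made from Myh7b, known for its part in switching between myosin types.

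The mature sequences are shown because the microRNAs share the part that pairs with targets. They are from RefSeq on GRCm38.p6, 5′ to 3′, with the seed (bases 2 to 8) in capitals.
mmu-miR-208b-3p: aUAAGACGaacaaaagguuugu
mmu-miR-208a-3p: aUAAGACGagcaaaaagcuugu
mmu-miR-499-5p: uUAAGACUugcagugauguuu
The miR-208b and miR-208a arms had the same seed and were equal at 19 of 22 positions. The miR-499 arm matched that seed at 6 of 7 positions.

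The 250 bases before a RefSeq start of each protein-coding member are shown (for Myh7, which has 2 starts in the table, before the first listed) because each pair of genes lies side by side and is compared below for whether its levels move together. Capitals mark matches, on either strand, to the motifs searched. Cores of the TCF/LEF site, through which Wnt signals reach genes, were searched as CTTTGAA, as CTTTGAT and as CTTTGTT. The others were the GATA motif AGATAA, the TEAD motif CATTCC, the NKX2-5 motif AAGTG, the thyroid hormone motif AGGTCA, the REST motif CAGCACC and the TATA box, TATAAA.
Nppa, chr4:148000472-148000721, plus strand: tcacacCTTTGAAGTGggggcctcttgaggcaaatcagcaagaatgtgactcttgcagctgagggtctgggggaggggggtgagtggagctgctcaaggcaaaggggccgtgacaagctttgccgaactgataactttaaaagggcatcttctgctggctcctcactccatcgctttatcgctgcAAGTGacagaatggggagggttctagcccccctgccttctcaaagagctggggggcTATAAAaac
Nppb, chr4:147985650-147985899, plus strand: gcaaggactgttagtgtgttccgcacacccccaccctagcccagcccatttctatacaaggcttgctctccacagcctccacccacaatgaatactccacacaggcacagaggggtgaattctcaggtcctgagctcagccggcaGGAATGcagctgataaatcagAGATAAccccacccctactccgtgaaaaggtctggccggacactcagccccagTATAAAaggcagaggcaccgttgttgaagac
Myh6, chr14:54966608-54966857, minus strand: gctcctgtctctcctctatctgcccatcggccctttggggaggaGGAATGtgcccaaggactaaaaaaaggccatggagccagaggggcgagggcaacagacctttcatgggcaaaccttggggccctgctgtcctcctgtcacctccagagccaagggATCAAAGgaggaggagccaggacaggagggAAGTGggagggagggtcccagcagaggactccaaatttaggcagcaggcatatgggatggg
Myh7, chr14:54994627-54994876, minus strand: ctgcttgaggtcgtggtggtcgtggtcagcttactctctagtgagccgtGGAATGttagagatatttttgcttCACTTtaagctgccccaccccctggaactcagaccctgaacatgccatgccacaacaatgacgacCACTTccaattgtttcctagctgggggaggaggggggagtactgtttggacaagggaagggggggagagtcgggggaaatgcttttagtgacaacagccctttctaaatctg
In the Nppa window CTTTGAA lay at positions -244 to -238 from the start, and it overlapped the first of 2 AAGTG matches. In the Myh6 window CTTTGAT lay on the opposite strand at positions -91 to -85. CTTTGAA was found in 5.14%, CTTTGAT in 3.73% and CTTTGTT in 5.85% of all 32851 promoter windows of the RefSeq table. These windows run past the start and so are longer than the stretches printed, and the members were searched over the same full windows. The Nppb window held AGATAA, which 11.2% of all windows held, and CATTCC, which 14.7% held. The Myh6 window and this Myh7 window each held CATTCC, and both also held AAGTG, which 46.4% of windows held. The window of the second Myh7 start, chr14:54994550-54994799, held 1 AAGTG match and no other match. TATAAA, found in 13.6% of windows, was in the Nppa and Nppb windows and just inside the Myh6 start. Neither AGGTCA (16.3% of windows) nor CAGCACC (7.14%) was in any of these windows. A match is a run of letters and not a measured binding site.

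On the GENCODE M21 annotation Nppb and Nppa lay head to tail on 1 strand, and so did Myh7 and Myh6. Mir208b lay in intron 31 of Myh7, an intron of 461 bases, and shared 0 bases with the exons of Myh7. Mir208a lay in intron 29 of Myh6. The long noncoding RNA gene Mhrt, antisense to Myh7 and known in mice to protect the heart, shared 484 of its 1214 exon bases with Myh7. The gene Gm13054, antisense to Nppa, shared 532 of its 820 exon bases with it, but had between 0 and 8 reads in a library. No source used here gives the strand setting of the counting, and reads of Myh7 and Mhrt cannot be told apart where their exons overlap. How reads that match both Myh6 and Myh7 were counted is not given either.

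**Figure D1:**
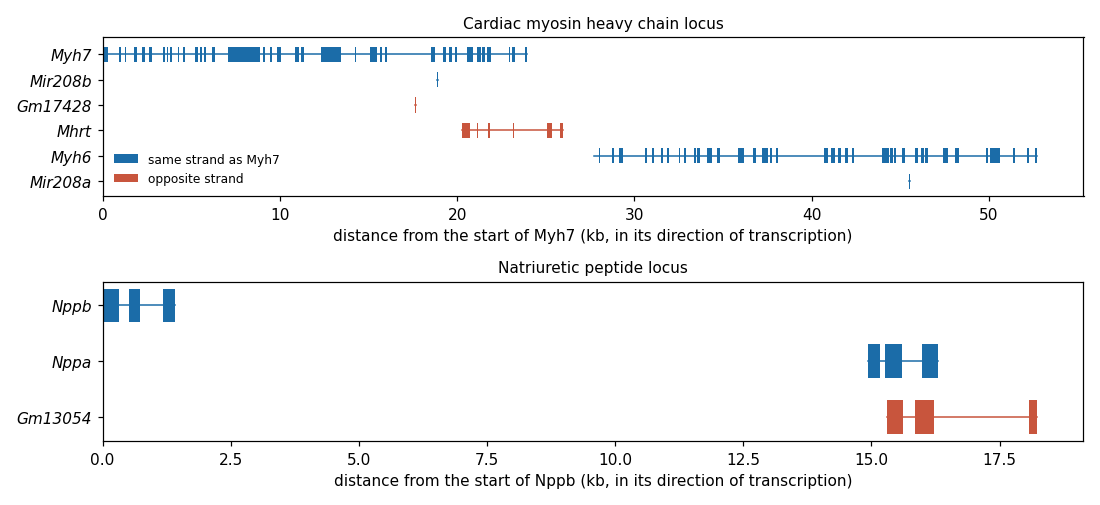
Maps of the cardiac myosin locus and the natriuretic peptide locus, with exons as blocks and the distance from the start of Myh7 or Nppb in kilobases on the x axis, in the direction of transcription. Mir208b falls within Myh7 and Mir208a within Myh6, and genes on the opposite strand are drawn in red.

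The 12 libraries held between 13274922 and 19173391 counted reads. Levels are given as CPM, the usual reads of a gene per fixed number of library reads, after scaling by edgeR's trimmed mean of M values (TMM). The 9 ventricular muscle markers summed to between 114992 and 135235 CPM in every library, and none of them was at 0 in any group. The 5 atrial markers Sln, Myl7, Myl4, Bmp10 and Fgf12 summed to between 1.63 and 4.81 CPM in 11 libraries and to 24.2 CPM in the library Wnt LOF RV 3. The Y-linked gene Ddx3y was above 1 CPM in the library numbered 3 of each group and in no other, so that number differs from the others in this respect in all 4 groups alike. The libraries of a group were therefore not all made from the same RNA. Ctnnb1, which encodes the Wnt effector beta-catenin and which the labels do not name as the target, averaged 445.1 ± 75.3 CPM in Wnt LOF LV and 510.5 ± 86.1 CPM in control LV (SD, n = 3 each). It averaged 409.7 ± 52.3 CPM in Wnt LOF RV and 530.5 ± 25.6 CPM in control RV (SD, n = 3 each), and only the RV groups did not overlap.

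One pair of libraries stood apart. Wif1, a secreted Wnt inhibitor, had 14.2 and 13.2 CPM in Wnt LOF RV 2 and 3, against 1.64 and 1.62 CPM in Wnt LOF LV 2 and 3. It had 11.98, 12.2 and 18.4 CPM in control RV libraries 1 to 3, against 2.62, 2.69 and 3.17 CPM in control LV libraries 1 to 3. The libraries labelled Wnt LOF RV 1 and Wnt LOF LV 1 went the other way, with 2.55 CPM in the RV and 13.5 CPM in the LV. Results that rest on this pair are therefore given with it and without it, and their labels were kept as deposited. Whether the ventricle labels of this pair were exchanged cannot be told from the labels.

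None of the 5 genes differed between any groups at an adjusted p under 0.05, and neither did any other gene in edgeR's quasi-likelihood test with Benjamini-Hochberg adjustment over 15494 genes (0.0% called in each of the 5 comparisons). The members did differ in how much they varied. Over the 12 libraries the highest level was 13.9 times the lowest for Nppb and 5.43 times for Nppa, against 1.83 times for Mir208b, 1.44 times for Myh7 and 1.17 times for Myh6. The reads behind these levels ran from 126 to 2048 for Nppb, from 236 to 1507 for Nppa, from 131 to 306 for Mir208b, from 19412 to 28271 for Myh7 and from 484537 to 711813 for Myh6.

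**Figure D2:**
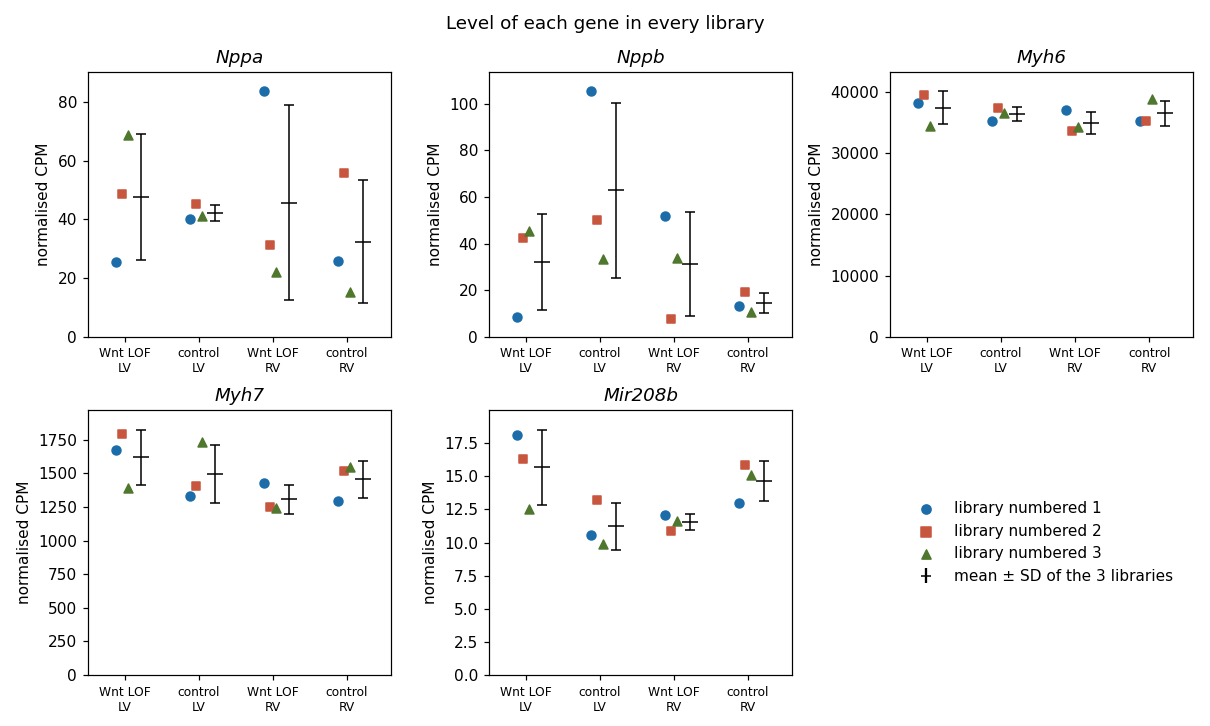
Level of each member in every library, in CPM on linear axes that start at 0, with Wnt LOF left of control for each ventricle. Points are libraries marked by their number and bars are the mean ± SD of 3 libraries. The Nppa and Nppb points scatter over several fold within groups, while the Myh6 points all lie between 33707 and 39589 CPM.

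Nppb varied most, and its clearest contrast was between the ventricles of control hearts. Nppb had 13.4, 19.4 and 10.7 CPM in control RV libraries 1 to 3, against 105.3, 50.1 and 33.3 CPM in control LV libraries 1 to 3. Every control RV library was below every control LV library, and the spread was wide in the LV. Mean levels were 14.5 ± 4.44 CPM in control RV and 62.9 ± 37.6 CPM in control LV (SD, n = 3 each). The log2 fold change of RV over LV was -2.12 (SE 0.82), with an unadjusted p of 0.0313 and an adjusted p of 0.921 in edgeR's quasi-likelihood test. Of all genes tested, 2.5% were lower in control RV at an unadjusted p under 0.05 and 5.92% had no overlap in that direction, and Nppb was the only member among them. RV and LV libraries of control hearts that carry the same number varied together, and with the number as a block and the 6 control libraries fitted alone 326 genes passed (2.19%). Nppb was not one of them, with a log2 fold change of -2.03 (SE 0.49) and an adjusted p of 0.317 in that edgeR fit. Without control LV 1, its highest library, the value was -1.53.

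With the labels as deposited, the ventricles of Wnt LOF hearts did not separate by Nppb. It had 52.0, 7.57 and 33.9 CPM in Wnt LOF RV libraries 1 to 3, against 8.47, 42.6 and 45.5 CPM in Wnt LOF LV libraries 1 to 3. The groups overlapped almost wholly, with a log2 fold change of -0.04 (SE 0.79). The number pairs disagreed: the RV library was 0.178 times the LV library in pair 2 and 0.745 times in pair 3, but 6.14 times in pair 1. In control hearts it was 0.128, 0.387 and 0.321 times the LV library in pairs 1 to 3. With the labels of pair 1 exchanged, Wnt LOF RV would have 8.47, 7.57 and 33.9 CPM and Wnt LOF LV 52.0, 42.6 and 45.5 CPM. The groups would then not overlap, with RV lower as in control hearts. Pair 1 is the one in which Wif1 was reversed too. Without it the log2 fold change of RV over LV was -1.09 (SE 0.77), with an adjusted p of 0.767 in edgeR's quasi-likelihood test, against -2.12 in control hearts. The difference between these differences was 2.08 (SE 1.13) with all libraries and 1.04 (SE 0.99) without the pair, and its adjusted p was 1.0 in both edgeR fits.

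**Figure D3:**
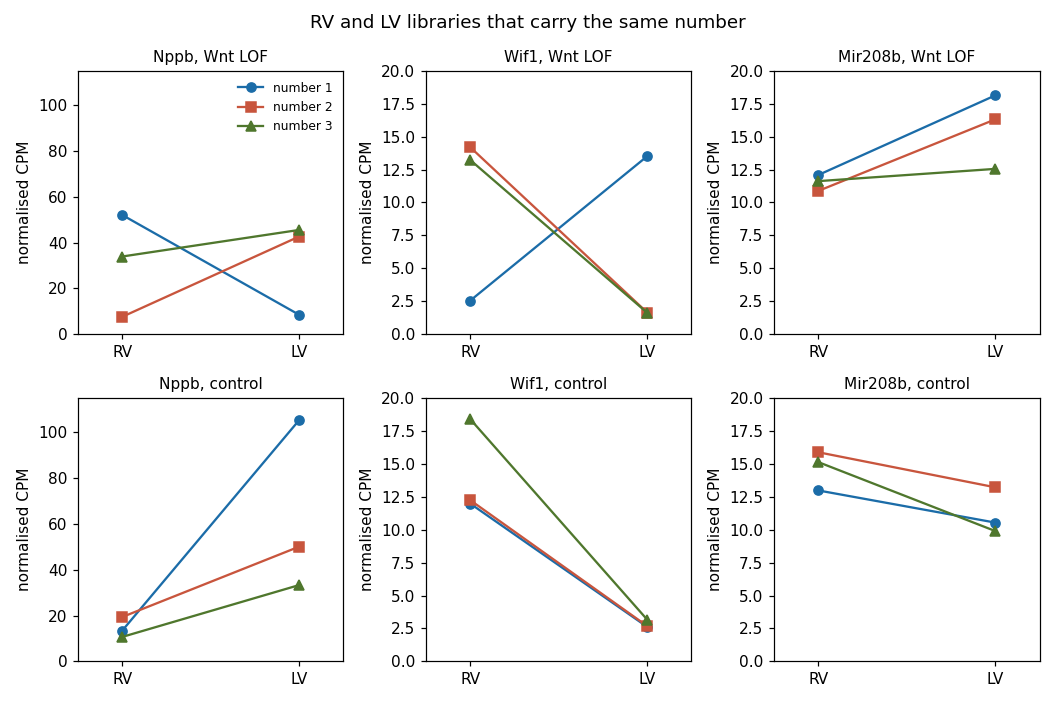
Nppb, Wif1 and Mir208b in CPM for RV (left) and LV (right) libraries that carry the same number, joined by a line, with Wnt LOF hearts above and control hearts below. In Wnt LOF pair 1 the Nppb and Wif1 lines run against the other pairs, and the Mir208b line does not.

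Set against control by ventricle, Nppb averaged 32.2 ± 20.6 CPM in Wnt LOF LV and 62.9 ± 37.6 CPM in control LV (SD, n = 3 each). The log2 fold change was -0.97 (SE 0.78; adjusted p = 0.999 in edgeR's quasi-likelihood test), and it was -0.38 without control LV 1 and -0.52 without Wnt LOF LV 1. In the RV it averaged 31.2 ± 22.4 CPM in Wnt LOF hearts and 14.5 ± 4.44 CPM in control hearts (SD, n = 3 each), a log2 fold change of 1.11 (SE 0.82) that was 0.52 without Wnt LOF RV 1. In order of mean level the groups ran control LV, Wnt LOF LV, Wnt LOF RV and control RV, and each overlapped its neighbour. In the authors' deposited table for the LV, Nppb had a log2 fold change of -1.46, with an interval of -3.0 to 0.08 and an adjusted p of 0.841.

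With all libraries kept and labelled as deposited, no groups of Nppa separated. It had 25.6, 48.8 and 68.7 CPM in Wnt LOF LV libraries 1 to 3, against 40.15, 45.35 and 41.1 CPM in control LV libraries 1 to 3. In the RV it had 83.6, 31.3 and 22.03 CPM in Wnt LOF libraries 1 to 3, against 25.9, 55.8 and 15.4 CPM in control libraries 1 to 3. Control LV libraries lay close together, and each of the other 3 groups ran from below them to above them. The log2 fold change of Wnt LOF over control was 0.18 (SE 0.60) in left and 0.50 (SE 0.61) in right ventricles. That of RV over LV was -0.06 (SE 0.60) in Wnt LOF and -0.39 (SE 0.61) in control hearts. As with Nppb and Wif1, pair 1 ran against the others in Wnt LOF hearts: the RV library was 3.27 times the LV library in pair 1, 0.641 times in pair 2 and 0.321 times in pair 3. Without pair 1 both remaining Wnt LOF RV libraries were below both Wnt LOF LV libraries, with a log2 fold change of -1.14 (SE 0.52) and an adjusted p of 0.59 in edgeR's quasi-likelihood test. With the labels of pair 1 exchanged, every Wnt LOF RV library would be below every Wnt LOF LV library. The difference between genotypes in the RV rested on 1 library: without Wnt LOF RV 1, the highest of all 12 at 83.6 CPM, it was -0.28. The library with the raised atrial markers, Wnt LOF RV 3, had 22.03 CPM of Nppa, which is also a product of atrial muscle. The part of atrial muscle in the Nppa levels was not tested.

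Per kilobase of exon, Nppa was 1.34 times Nppb in Wnt LOF LV and 0.606 times in control LV, and it was 1.32 times in Wnt LOF RV and 2.01 times in control RV. Within libraries, Nppb made up 34.1%, 25.8% and 41.0% of Nppa plus Nppb reads in control RV 1 to 3, against 72.4%, 52.5% and 44.8% in control LV 1 to 3. All RV shares were below all LV shares, with a difference of -1.38 in the log2 ratio of Nppb to Nppa. The exact permutation p, on both sides, was 0.1, the smallest that 3 against 3 libraries can give, and 0.4 after adjustment over 8 ratio comparisons. In Wnt LOF hearts the shares were 38.4%, 19.5% and 60.6% in RV 1 to 3 and 24.9%, 46.6% and 39.8% in LV 1 to 3, which overlapped. The log2 ratio differed by 0.09 with pair 1 and by -0.29 without it.

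Myh6 was close to even across all libraries. Its reads were between 3.255% and 4.032% of the library, and group means were 37449 CPM in Wnt LOF LV, 36438 CPM in control LV, 34985 CPM in Wnt LOF RV and 36536 CPM in control RV. The log2 fold change of Wnt LOF over control was 0.04 (SE 0.09) in left and -0.06 (SE 0.09) in right ventricles. The intervals of 2 SE around these values ran from -0.14 to 0.22 and from -0.24 to 0.12. RV over LV was -0.10 (SE 0.09) in Wnt LOF and 0.00 (SE 0.09) in control hearts.

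Myh7 was lowest in the RV of Wnt LOF hearts. It had 1429, 1248 and 1239 CPM in Wnt LOF RV libraries 1 to 3, against 1675, 1789 and 1390 CPM in Wnt LOF LV libraries 1 to 3. Each RV library was below the LV library of its number, though Wnt LOF RV 1 was above Wnt LOF LV 3, so the groups overlapped. The log2 fold change of RV over LV was -0.31 (SE 0.13), with an unadjusted p of 0.0291 and an adjusted p of 1.0 in edgeR's quasi-likelihood test. Myh7 was 1 of 2 members lower there at an unadjusted p under 0.05, as were 1.59% of all genes. Without pair 1 its value was -0.35 (SE 0.16). Control hearts had 1297, 1520 and 1549 CPM in RV libraries 1 to 3 and 1332, 1406 and 1736 CPM in LV libraries 1 to 3, a log2 fold change of -0.04 (SE 0.13). The difference between these differences was -0.27 (SE 0.18; adjusted p = 1.0, edgeR). Wnt LOF over control was 0.12 (SE 0.13) in left and -0.16 (SE 0.13) in right ventricles.

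Foetal-type switching between the chains is usually read from their ratio. Myh7 made up 3.72%, 3.57% and 3.49% of Myh6 plus Myh7 reads in Wnt LOF RV 1 to 3, against 4.19%, 4.32% and 3.88% in Wnt LOF LV 1 to 3. These groups did not overlap, and the log2 ratio of Myh7 to Myh6 differed by -0.21 (exact permutation p on both sides = 0.1, the smallest possible; 0.4 adjusted over the 8 comparisons). Without pair 1 both remaining RV shares were below both remaining LV shares. With the labels of pair 1 exchanged, its RV share would be 4.19% and its LV share 3.72%, and the groups would overlap. The share averaged 3.83% ± 0.295 in control RV and 3.93% ± 0.517 in control LV (SD, n = 3 each). Wnt LOF and control libraries overlapped in both ventricles, with differences in the log2 ratio of 0.08 in the LV and -0.09 in the RV. Per kilobase of exon, Myh6 was between 29.6 and 34.3 times Myh7 in the 4 groups.

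**Figure D4:**
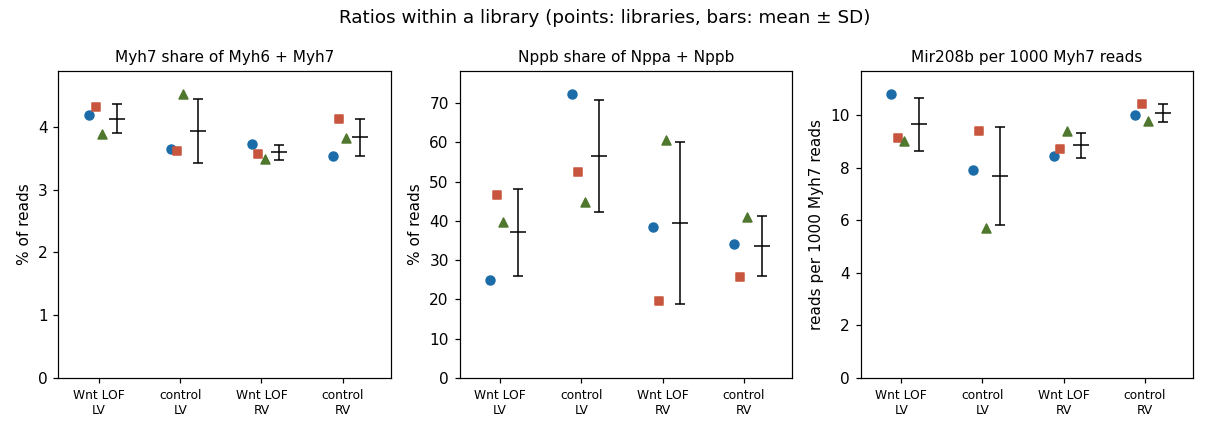
Shares within a library: Myh7 in Myh6 plus Myh7 reads, Nppb in Nppa plus Nppb reads, and Mir208b reads per 1000 Myh7 reads, with Wnt LOF left of control for each ventricle. Points are libraries (circle, square and triangle for numbers 1, 2 and 3) and bars are mean ± SD. The Myh7 share stays between 3.49% and 4.53%, while the Nppb share runs from 19.5% to 72.4%.

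Mir208b had the smallest unadjusted p of the 5 members in all 5 comparisons, though it passed none of them after adjustment. Its level in Wnt LOF hearts was above control in the LV and below control in the RV. It had 18.1, 16.3 and 12.55 CPM in Wnt LOF LV libraries 1 to 3, against 10.5, 13.2 and 9.90 CPM in control LV libraries 1 to 3. Each Wnt LOF LV library was above the control LV mean, and only Wnt LOF LV 3 lay within the control range. In the RV it had 12.1, 10.9 and 11.6 CPM in Wnt LOF libraries 1 to 3, against 13.0, 15.9 and 15.1 CPM in control libraries 1 to 3. Here every Wnt LOF library was below every control library. Means were 15.7 ± 2.84 CPM in Wnt LOF LV and 11.2 ± 1.76 CPM in control LV, and 11.5 ± 0.612 CPM in Wnt LOF RV and 14.7 ± 1.501 CPM in control RV (SD, n = 3 each).

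The log2 fold change of Mir208b in Wnt LOF over control was 0.48 (SE 0.15; unadjusted p = 0.0073, adjusted p = 0.999, edgeR) in the LV, where 1.43% of genes were higher at an unadjusted p under 0.05. It was -0.34 (SE 0.15; unadjusted p = 0.0398, adjusted p = 1.0, edgeR) in the RV, where 1.16% of genes were lower at that level and 3.94% had no overlap in that direction. In both comparisons it was the only one of the 5 members at that level. RV over LV was -0.44 (SE 0.15; adjusted p = 1.0, edgeR) in Wnt LOF hearts, without overlap, as for 3.7% of genes in that direction. It was 0.38 (SE 0.15; adjusted p = 0.921, edgeR) in control hearts, where 2.38% of genes were higher at an unadjusted p under 0.05. The difference between these differences was -0.82 (SE 0.21; unadjusted p = 0.00191), and it did not pass either, with an adjusted p of 1.0 in edgeR's quasi-likelihood test. At an unadjusted p under 0.05 this difference was negative for 0.962% of genes. These 5 values are not separate evidence, since each group of libraries enters several of them.

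With the labels as deposited, Mir208b did not share the reversal of pair 1. RV was lower than LV in all 3 Wnt LOF pairs, at 0.667, 0.667 and 0.926 times, and higher than LV in all 3 control pairs, at 1.23, 1.2 and 1.53 times. With the labels of pair 1 exchanged, its RV library would be 1.5 times its LV library, against the direction of pairs 2 and 3. Without pair 1 the Wnt LOF over control values were 0.36 (SE 0.17) in left and -0.38 (SE 0.17) in right ventricles, the difference between them was -0.74 (SE 0.24), and RV over LV in Wnt LOF hearts was -0.36 (SE 0.18). In the fit of the 6 control libraries alone with the number as a block, RV over LV was 0.38 (SE 0.11), with an adjusted p of 0.101 in edgeR's quasi-likelihood test. In the authors' deposited tables Mir208b had a log2 fold change of 0.53 (interval 0.21 to 0.85, adjusted p = 0.841) in the LV and of -0.24 (interval -0.57 to 0.08, adjusted p = 0.918) in the RV.

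**Figure D5:**
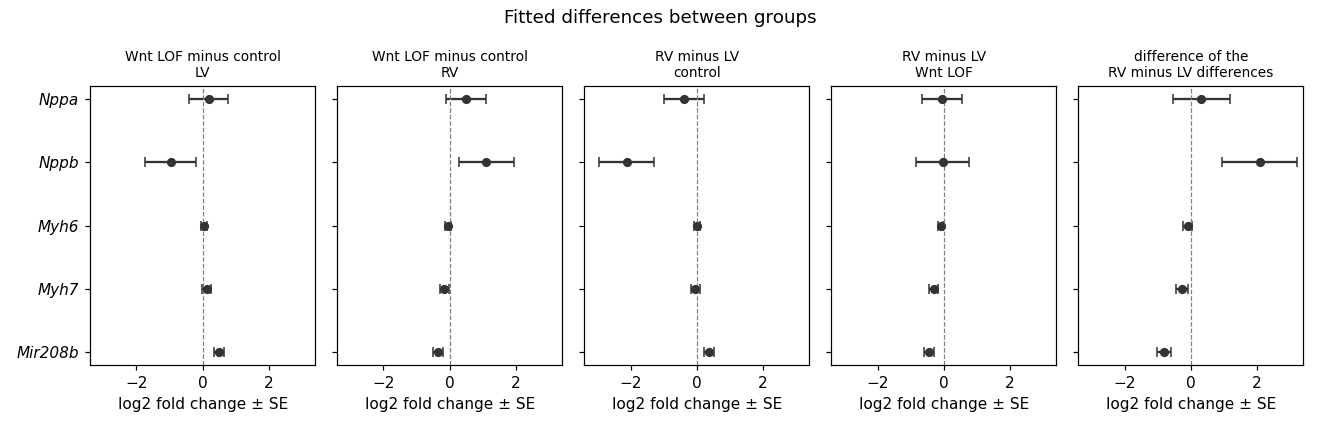
Fitted log2 fold changes ± SE of the 5 members in the 5 comparisons, on 1 shared scale. Mir208b lies at 0.48 and -0.34 in the first 2 panels and at -0.82 in the last, Nppb has the longest bars, and Myh6 lies near 0 in all panels.

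The Mir208b row counts reads over the 77 bases of the hairpin. The labels name no small RNA library, and such reads cannot be told apart from RNA of the host intron, so the row is not a measure of the mature microRNA. Mir208b had 10.8, 9.11 and 9.03 reads per 1000 Myh7 reads in Wnt LOF LV 1 to 3, against 7.91, 9.40 and 5.70 in control LV 1 to 3. In the RV it had 8.46, 8.72 and 9.38 in Wnt LOF 1 to 3, against 10.01, 10.4 and 9.77 in control 1 to 3, without overlap. Relative to its host, the mean was 9.66 in Wnt LOF LV and 7.67 in control LV, and 8.85 in Wnt LOF RV and 10.1 in control RV, the same directions as in CPM. A pair of neighbours inside myosin introns had like patterns over the 12 libraries. Gm17428, of unstated function, in intron 30 of Myh7 on the opposite strand, had a Pearson r of 0.846 with Mir208b, and Mir208a in Myh6 had one of 0.768. Mir208a averaged 3.31 ± 0.218 CPM in Wnt LOF RV and 4.33 ± 0.232 CPM in control RV (SD, n = 3 each), without overlap, and its log2 fold change was -0.39 (SE 0.18; adjusted p = 1.0, edgeR). Mir499, the microRNA gene within Myh7b, had between 2 and 12 reads in a library, too few to compare.

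Myh6 and Myh7 varied together. Over the 12 libraries Pearson's r of log2 CPM was 0.79 and Spearman's rho 0.85, with permutation p-values of 0.0198 and 0.00618 after adjustment over 6 pairs of the protein-coding members. Without the 2 libraries farthest from the Myh6 median r was 0.72, and it was 0.72 for deviations from group means. Without Wnt LOF pair 1 it was 0.77, with an adjusted permutation p of 0.0586. The counting of reads that match both Myh6 and Myh7 is not given, and their part in this r was not tested. For Nppa and Nppb r was 0.6 and rho 0.59, with adjusted permutation p-values of 0.125 and 0.146. The other 4 pairs had r between -0.09 and 0.12. Libraries of 1 number may share a heart, so the 12 are not fully independent and these p-values may be too small. Myh7 and Mir208b had r of 0.5 and rho of 0.48, a pair added after its values were seen. Its r was 0.89 without the 2 libraries farthest from the Myh7 median and 0.38 for deviations from group means, and its adjusted permutation p with all libraries was 0.236.

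Among 12306 genes with a mean log2 CPM of at least 1, those most like each member over the 12 libraries were found by Pearson's r, as a description. For Nppb they were Ctsk (0.915), Tnfrsf12a (0.904), Plekhh1 (0.902), Kctd12b (0.899) and Hectd2os (0.896). Wif1 had an r of -0.825 with Nppb and of -0.759 with Nppa. For Nppa they were Fam198a (0.853), Far1 (0.844), Zfp273 (0.83), Cp (0.824) and Dok4 (0.808). Rbsn (0.913), 9430091E24Rik (0.904), Pde4dip (0.902), Gzf1 (0.901) and Vps13d (0.888) were nearest to Myh6. Nearest to Myh7 were Spaca6 (0.926), Ahdc1 (0.923), Sec24c (0.921), AI480526 (0.918) and Abl1 (0.913), and nearest to Mir208b were Zbtb49 (0.885), Abl2 (0.882), Gm17428, Efcab2 (0.839) and Mir6236 (0.821).

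The rest of the natriuretic peptide pathway gave no call. Of the other ligands, Nppc had at most 2 reads in a library and Ostn, a peptide of muscle and bone that binds the clearance receptor, had 0. All 7 processing and breakdown genes, among them the protease Corin that activates the Nppa precursor, were tested, and none reached an unadjusted p under 0.05 in any comparison. Of 10 tested receptor and cyclic GMP genes, 1 reached it in the LV comparison of genotypes, where 1.43% of all genes were higher and 1.42% lower. This gene, Pde3a, a cyclic nucleotide phosphodiesterase, averaged 189.9 ± 14.1 CPM in Wnt LOF LV and 156 ± 11.1 CPM in control LV (SD, n = 3 each; log2 fold change 0.28, SE 0.13; adjusted p = 0.999, edgeR). Pde3a averaged 198 ± 41.6 CPM in control RV, a log2 fold change of 0.34 (SE 0.13) over control LV. Npr1, the receptor for both peptides, averaged 28.4 ± 1.88 CPM in Wnt LOF RV and 34.02 ± 3.51 CPM in Wnt LOF LV (SD, n = 3 each), a log2 fold change of -0.26 (SE 0.10). In bulk tissue fewer cells of a type and less RNA per cell cannot be told apart.

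The wider foetal and stress programme had 22 tested genes, including Nppa, Nppb and Myh7, and none was called. Its median log2 fold change of Wnt LOF over control was -0.15 in the LV and 0.22 in the RV, beside -0.004 and 0.001 over all genes tested. In the LV 14 of the 22 lay below 0, and in the RV 15 of the 22 lay above it. Of 7 tested smooth and skeletal muscle markers, 6 lay below 0 in the LV (median -0.16) and 6 above 0 in the RV (median 0.13). All 6 macrophage markers lay above 0 in the RV (median 0.20), and 5 of the 6 did so in the LV (median 0.08). The part of these cells in the medians was not tested. At an unadjusted p under 0.05 the LV had 0 higher and 2 lower, where 1.42% of all genes were lower. These were Actc1, a cardiac actin, with 6603 ± 373 CPM in Wnt LOF LV and 8013 ± 892 CPM in control LV (SD, n = 3 each), and Rcan1, a calcineurin regulator, with 66.4 ± 3.92 CPM in Wnt LOF LV and 76.1 ± 3.57 CPM in control LV. The RV had 4 higher, as were 1.54% of all genes, and 1 lower. The 3 of these with the smallest p were the atrial light chains Myl4 and Myl7 and the matrix gene Ctgf. Actc1, lower in the LV, was among the higher genes in the RV (log2 fold change 0.24, SE 0.10). It averaged 7914 ± 420 CPM in Wnt LOF RV and 6704 ± 501 CPM in control RV (SD, n = 3 each). Myl7 averaged 3.82 ± 5.51 CPM in Wnt LOF RV and 0.409 ± 0.246 CPM in control RV (SD, n = 3 each), with 10.15 CPM in Wnt LOF RV 3, the library whose summed atrial markers were highest. The part of that library in the RV median was not tested. Ctgf averaged 59.3 ± 4.94 CPM in Wnt LOF RV and 120 ± 53.2 CPM in control RV (SD, n = 3 each). RV over LV, the median was 0.05 in Wnt LOF and -0.18 in control hearts. The control comparison had 1 gene higher at an unadjusted p under 0.05, Ctgf (log2 fold change 1.03, SE 0.39), and 3 lower, beside 2.38% higher and 2.5% lower over all genes. The lower ones were Nppb, Actc1 and Xirp2, an actin-binding repeat protein with 1048 ± 51.9 CPM in control RV and 1412 ± 77.4 CPM in control LV (SD, n = 3 each).

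Genes around the myosin switch were also without a call. A list of sarcomeric myosin chains, myosin-binding proteins and a myosin kinase had 12 tested genes, including Myh6 and Myh7. Its medians in the 4 pairwise comparisons lay between -0.09 and 0. Thra, the main thyroid hormone receptor of the heart, averaged 89.5 ± 6.24 CPM in control RV and 79.4 ± 3.53 CPM in control LV (SD, n = 3 each; log2 fold change 0.17, SE 0.08; adjusted p = 0.921, edgeR). The 16 tested regulators of its list, Mir208b and Mir208a among them, had medians of 0.02 in the LV and -0.01 in the RV for Wnt LOF over control. At an unadjusted p under 0.05 there were only Mir208b, higher in the LV, and Mir208b and Mir208a, lower in the RV. Of all genes 1.43% were higher in the LV and 1.16% lower in the RV at that level. Of 26 tested factors reported to act on these genes, 1 was higher in Wnt LOF RV at an unadjusted p under 0.05, as were 1.54% of all genes. This was the coactivator Myocd, with 110.9 ± 8.5 CPM in Wnt LOF RV and 86.8 ± 11.2 CPM in control RV (SD, n = 3 each). The 12 reported targets of miR-208 and miR-499 had medians of -0.01 in the LV and -0.02 in the RV for Wnt LOF over control, and none of them reached an unadjusted p under 0.05 there. In control hearts 3 of the 12 reached it, with 2 higher and 1 lower in the RV, beside 2.38% and 2.5% over all genes. The higher ones were Mstn (log2 fold change 2.51, SE 0.85) and Hopx (0.30, SE 0.14). Mstn averaged 2.087 ± 2.03 CPM in the RV and 0.3745 ± 0.205 CPM in the LV, with overlap. Hopx averaged 136.7 ± 11.7 CPM in the RV and 110.7 ± 9.67 CPM in the LV (SD, n = 3 each). The lower one was Eya4, a transcription cofactor, which averaged 0.555 ± 0.144 CPM in the RV and 1.09 ± 0.0546 CPM in the LV (SD, n = 3 each; log2 fold change -0.95, SE 0.29; adjusted p = 0.921, edgeR).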

How the data were processed

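RNA from adult mouse ventricle was measured in 12 libraries, 3 in each of 4 groups taken from the labels. The authors deposited raw read counts per Ensembl gene, and featureCounts, Subread and edgeR are named in the submitters' processing notes without versions. No source used here gives the aligner, genome build or strand setting. The authors also deposited tables with log2 fold changes, p-values, a moderated t and log odds score, and a signed linear fold change, per the file headers. Of 41192 rows, 598 repeats with equal counts were left out, leaving 40594 genes.

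Counts were fitted with edgeR 4.0.16 (R 4.3.3): TMM scaling, filterByExpr (15494 genes kept, all 5 members among them), 1 mean per group over all 12 libraries, the quasi-likelihood test and Benjamini-Hochberg adjustment, with a threshold of 0.05. DESeq2 1.42.0 was an alternative and also called 0 genes in each of the 5 comparisons. At an unadjusted p under 0.05 edgeR gave 442 genes in the LV and 418 in the RV for Wnt LOF against control, 746 for RV against LV in Wnt LOF hearts, 756 in control hearts and 312 for the difference between them. DESeq2 gave 323, 303, 645, 683 and 215. The edgeR fit was tested on simulated counts for the pairwise comparisons, and the permutation, correlation and adjustment steps on constructed values. The DESeq2 fit, the block fits and the difference between differences were not tested in this way. Ratios within libraries used 0.5 CPM as pseudocount and an exact permutation test. Correlations used log2 CPM and 100000 permutations. Lengths and gene structure came from GENCODE M21, which held 99.2% of the gene IDs, and sequences from RefSeq (GRCm38.p6). All members are named. From the gene lists up to 3 genes with the smallest unadjusted p under 0.05 per comparison could be named, and the likest genes by the 5 highest r. Members and lists were chosen with earlier results of these data known.

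In control hearts RV and LV libraries with the same number deviated together from their group means, a pairing that no label states. There r was 0.411, 0.29 and 0.517 for numbers 1 to 3, against -0.38 to 0.0727 for different numbers. In Wnt LOF hearts r was 0.191, 0.197 and 0.594 for numbers 1 to 3, against -0.374 to 0.201 for different numbers. Only number 3, the number with Ddx3y above 1 CPM, stood apart there. Number 3 also had the highest r among same-number libraries of different genotype, at 0.233 in the LV and 0.306 in the RV. The values reported come from fits without a block, and the fit with the number as a block was an alternative. Alternatives were other scalings, filters and fits, the replicate block, a term for Ddx3y and left-out libraries.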

Additional observations from a re-analysis of the deposited data

Results flagged for a closer look

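Mir208b stood out in 2 ways that share the same libraries. All 3 Wnt LOF LV libraries lay above the control LV mean and all 3 Wnt LOF RV libraries below the control RV mean. Likewise RV libraries lay below the LV mean in Wnt LOF hearts and above it in control hearts. Both readings are 1 difference between differences, -0.82 on the log2 scale (SE 0.21, edgeR's quasi-likelihood test, unadjusted p = 0.00191, adjusted p = 1.0), which did not pass the correction. Leaving out single libraries gave values between -0.97 and -0.7. These do not cover exchanged ventricle labels in Wnt LOF pair 1, with which RV would lie above LV in that pair. Since reads over the hairpin and over the Myh7 intron cannot be told apart, the value holds for the annotated row only.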

How the results depend on the processing

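No member passed the threshold under any of 24 alternatives, with a lowest adjusted p of 0.101 (edgeR, Mir208b, RV against LV in control hearts with the replicate block and these groups alone). Counts of genes passing moved as follows. RV against LV in control hearts gave 9 with the compared groups alone, 326 with the block added, and 2 without Wnt LOF pair 1, also without control LV 2. RV against LV in Wnt LOF hearts gave 1 with the replicate block, with all groups or alone, and 2 without pair 1, also without control LV 2. The difference between them gave 1 with the block. Single left-out libraries gave 0 to 1 for Wnt LOF against control in the RV (1 without Wnt LOF LV 1) and 0 to 1 for RV against LV in Wnt LOF hearts (1 without Wnt LOF RV 1).

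Directions turned in 5 of 290 member values: without pair 1, Nppa was -0.28 in the RV and -0.76 for the difference between differences (-0.28 and -0.81 also without control LV 2), and Myh6 for RV over LV in control hearts was -0.01 with total counts only. The log2 Nppb to Nppa ratio for RV over LV in Wnt LOF hearts was -0.29 in both fits without pair 1, r was 0.09 for Nppb with Myh6 and 0.14 for Nppb with Myh7, and the Myh6 with Myh7 r was 0.77 with an adjusted permutation p of 0.0586. Single left-out libraries turned 14 of 300 member values: Wnt LOF over control, Nppa ran from -0.17 to 0.48 in the LV and -0.28 to 1.15 in the RV. RV over LV, Nppa ran from -0.85 to 0.29 and Nppb from -0.64 to 0.42 in Wnt LOF hearts, and Myh6 from -0.04 to 0.03 and Myh7 from -0.12 to 0.09 in control hearts. The Nppa difference between differences ran from -0.46 to 0.97. Log2 ratios ran from -0.09 to 0.08 (Myh7 to Myh6, RV over LV in control hearts), -0.35 to 0.94 (Nppb to Nppa, Wnt LOF over control in the RV) and -0.55 to 0.74 (RV over LV in Wnt LOF hearts). The cause was not tested. The replicate block changed no other call. In genotype comparisons r ran from -0.0904 to 0.306 for libraries of the same number and from -0.237 to 0.321 for different numbers.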

Other observations

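Pdk4, which restrains glucose use, and Cpt1b, which carries fatty acids into mitochondria, are on a list of 14 genes that hypertrophy is known to lower, and none of the list was called. Pdk4 averaged 443 ± 58.4 CPM in Wnt LOF RV and 1035 ± 227 CPM in control RV (SD, n = 3 each), without overlap (log2 fold change -1.22, SE 0.32; edgeR's quasi-likelihood test, adjusted p = 1.0). Cpt1b averaged 33.5 ± 3.09 CPM in Wnt LOF RV and 40.3 ± 0.141 CPM in control RV (SD, n = 3 each; log2 fold change -0.27, SE 0.09). These were the 2 genes of the list lower in Wnt LOF RV at an unadjusted p under 0.05, as were 1.16% of all genes. Of all genes 3.94% had no overlap in that direction. Pdk4 was also higher in control RV than in control LV, which averaged 571.6 ± 41.1 CPM (log2 fold change 0.86, SE 0.32). The list's median of Wnt LOF over control was 0.05 in the LV and -0.07 in the RV. Kcnd2, a potassium channel gene known to differ between regions of the heart, averaged 91.1 ± 6.85 CPM in control RV and 37.95 ± 6.76 CPM in control LV (SD, n = 3 each; log2 fold change 1.26, SE 0.42; adjusted p = 0.921, edgeR).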
